A study of Mus musculus with 2 samples.

Results

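The Mir30 family was examined through its 6 genes, Mir30a, Mir30b, Mir30c-1, Mir30c-2, Mir30d and Mir30e, out of 2202 annotated miRNA genes counted in the series. The members were taken by gene symbol and all 6 were found. They lie as 3 neighbouring pairs, here called the loci Mir30a/c-2, Mir30b/d and Mir30c-1/e. The series consists of 2 microRNA-seq libraries of total RNA from whole gastrocnemius, the large calf muscle, of male B6CASTF1/J mice at 10 days of age. B6CASTF1/J is the first-generation cross of the inbred strains C57BL/6J and CAST/EiJ. The libraries form 1 group, with no treatment, mutation or control group, and the labels number them as biological replicates 1 and 2, with 1 donor entry given for both. The spread between them is therefore the only error, and no contrast between conditions exists.

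A miRNA is cut from a hairpin precursor, and its 5' and 3' arms can each be loaded into an Argonaute protein. Bases 2 to 8 of the loaded arm, the seed, pair with target mRNAs and lead to their repression. The miR-30 family is defined by the seed of its 5' arms. It is expressed in many tissues, and in muscle it has been studied as a group that favours differentiation of myoblasts, while in the heart it has been linked to repression of connective tissue growth factor.

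The mature arms of 4 of the 6 genes were found in the RefSeq table (GRCm38.p6), which gives Mir30a, Mir30c-1, Mir30c-2 and Mir30e. Mir30b and Mir30d are named only. The 5' arms are shown because they carry the family seed, given in capitals, and because they show which members have a sequence of their own.
miR-30a-5p: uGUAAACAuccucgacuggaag
miR-30e-5p: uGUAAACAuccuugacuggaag
miR-30c-5p: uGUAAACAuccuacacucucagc
All of these arms share the seed GUAAACA and are identical over their first 12 bases. Counted from 1 at the 5' end, miR-30a-5p and miR-30e-5p differ at a single base, C13U. From miR-30a-5p to miR-30c-5p there are 5 differences over 22 bases, namely C13A, G14C, G18C, G19U and A20C. The RefSeq table lacks the arms of Mir30b and Mir30d, so they are not in the following count. Among its 1679 mature miRNA names, 4 carry this seed, the other being miR-384-5p. The gene of that miRNA, Mir384, had 8 counts in replicate 1 and 12 in replicate 2, below every member.

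The 3' arms divide the same genes into a pair of seed groups, again in capitals, and they are the mature arms in which Mir30c-1 and Mir30c-2 differ.
miR-30a-3p: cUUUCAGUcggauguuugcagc
miR-30e-3p: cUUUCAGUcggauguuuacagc
miR-30c-1-3p: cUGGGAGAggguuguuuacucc
miR-30c-2-3p: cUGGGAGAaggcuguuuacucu
The 3' arms of Mir30a and Mir30e share the seed UUUCAGU and differ by G18A. Those of Mir30c-1 and Mir30c-2 share the seed UGGGAGA and differ by G9A, U12C and C22U.

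Mir30c-1 and Mir30c-2 encode the same 23-base 5' arm. The hairpins are printed with both mature arms in capitals to show how far this identity reaches.
Mir30c-1: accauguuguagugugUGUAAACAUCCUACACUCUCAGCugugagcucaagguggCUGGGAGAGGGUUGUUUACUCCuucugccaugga
Mir30c-2: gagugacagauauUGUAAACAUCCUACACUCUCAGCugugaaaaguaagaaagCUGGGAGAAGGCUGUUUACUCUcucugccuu
The longest stretch common to both is 28 nt and covers the whole 5' arm with 5 further bases of the loop side. Mir30a and Mir30e, the next most alike of these 4 hairpins, share 18 nt. Of the arms listed for the 4 genes, miR-30c-5p was the only sequence found in more than 1 of the 2202 annotated miRNA genes. The deposited tables hold reads with several genomic matches in a summary row and in no gene. The counts of Mir30c-1 and Mir30c-2 therefore stand apart from those of Mir30a and Mir30e in what they can contain. A read of the bare miR-30c-5p arm matches both miR-30c genes. For Mir30b and Mir30d this was not searched, and copies outside annotated miRNA genes were searched for no member. The tables give no count per arm.

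The loci are on 3 chromosomes (mm10, GENCODE M21). Mir30a (chromosome 1, 23272269 to 23272339, plus strand) overlaps no other annotated gene, and Mir30c-2 (23291701 to 23291784) lies 19361 nt downstream of it, wholly inside exonic sequence of Gm27028, a long non-coding RNA. Mir30d (chromosome 15, 68341208 to 68341289, minus strand) lies wholly in exonic sequence of another long non-coding RNA, Gm20732, with 9 nt also inside the transcript Gm37296, and Mir30b (68337415 to 68337510) follows 3697 nt downstream, with 16 nt of its hairpin inside the transcript Gm26621. Mir30e (chromosome 4, 120772606 to 120772697, minus strand) and Mir30c-1 (120769534 to 120769622), with 2983 nt between them, lie in introns of Nfyc, which encodes a subunit of the CCAAT-binding factor NF-Y. Of the 10 annotated Nfyc transcripts, 6 span each hairpin, and none has an exon that overlaps either.

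**Figure D1:**
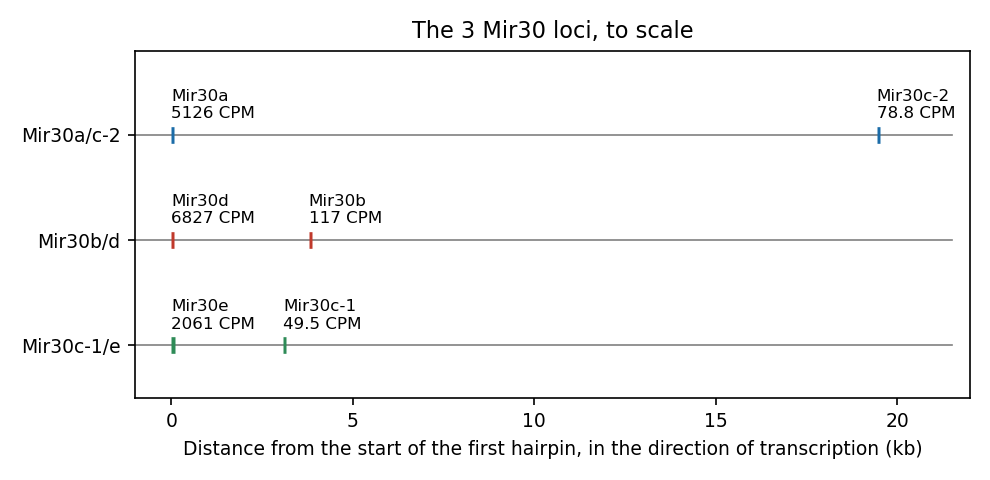
The 3 Mir30 loci drawn to scale, with distance in kb from the start of the first hairpin in the direction of transcription on the horizontal axis and 1 line per locus. Coloured bars are hairpins, labelled with the mean CPM of both libraries: at each locus the first hairpin (5126, 6827 and 2061 CPM) had the higher level and the second (78.8, 117 and 49.5 CPM) the lower.

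Of 9678334 reads in replicate 1 and 12889382 in replicate 2, the sense columns place 3999172 and 5062714 in miRNA genes. Levels are in CPM, counts per 1000000 assigned counts. A count of 0 allows up to 3 counts, or 0.75 CPM in replicate 1 and 0.593 CPM in replicate 2. Exact (Clopper-Pearson) 95% intervals and this limit cover counting error only. The tissue label was checked on 8 skeletal muscle miRNAs, which took 10.1% and 8.80% of the assigned counts, nearly all of it Mir206. The check rests on that gene, since the others had mean levels of 1.67 to 247 CPM. Reads with several genomic matches are not in these levels. Of 3 neuronal Mir124a genes, 2 had no count and the other had 1 count in all. The erythroid pair Mir451a and Mir144 took 0.168% in replicate 1 and 0.409% in replicate 2, and the hepatocyte Mir122 0.0103% and 0.0272%.

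The family was a modest part of the assigned counts, and 3 of its genes made up nearly all of its own counts. Reads with several genomic matches, such as those of the bare miR-30c-5p arm, are in neither share. The 6 genes held 57891 counts in replicate 1, which is 1.448% of the assigned counts (interval 1.436 to 1.459), and 71091 counts in replicate 2, which is 1.404% (1.394 to 1.414). The intervals of the libraries did not overlap, and the mean share was 1.43% ± 0.031 (SD, n = 2). In whole tissue, fewer cells that express a gene and less RNA per cell cannot be told apart. Mir30d, Mir30a and Mir30e took 98.3% ± 0.22 of the family's counts, and the pair Mir30c-1 and Mir30c-2 together took 0.901% ± 0.079.

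Mir30d, the first hairpin of the Mir30b/d locus, had the highest level of the family. It was counted 28233 times in replicate 1 and 33380 times in replicate 2, or 7059.7 and 6593 CPM, with a mean of 6827 ± 330 CPM (SD, n = 2). Its share of the family was 48.8% in replicate 1 and 47.0% in replicate 2. The replicate 1 value was the higher on both measures.

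Mir30a, first at its own locus and known from many tissues for its role in autophagy through Beclin 1, came next. Its counts were 20710 and 25686, or 5179 and 5074 CPM, with a mean of 5126 ± 74 CPM. The libraries gave nearly the same share of the family, 35.8% and 36.1%. Mir30d stood 1.36-fold above Mir30a in replicate 1 and 1.30-fold in replicate 2, and the ranges of the pair did not overlap. Per 100 nt of hairpin the difference was smaller, since the Mir30a hairpin has 71 nt and that of Mir30d 82 nt: the mean levels were 8325 and 7220 CPM per 100 nt, a 1.15-fold difference.

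Mir30e, the first hairpin within Nfyc, followed. It had 8042 counts in replicate 1 and 10689 in replicate 2, which is 2011 and 2111 CPM and a mean of 2061 ± 71 CPM. Here replicate 2 was the higher, with 15.0% of the family's counts against 13.9% in replicate 1. Mir30a exceeded it 2.58-fold and 2.40-fold in replicates 1 and 2.

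The other 3 genes lay more than an order of magnitude lower. Mir30b, second at its locus, had 417 and 656 counts, or 104 and 130 CPM (interval 94.5 to 115 in replicate 1 and 120 to 140 in replicate 2), with a mean of 117 ± 18 CPM. Mir30e exceeded it 19.3-fold in replicate 1 and 16.3-fold in replicate 2. Mir30b was the member with the widest spread for its level, and the intervals of its libraries did not overlap.

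The miR-30c genes had the lowest levels. Mir30c-2 was counted 298 and 421 times, or 74.5 and 83.2 CPM (mean 78.8 ± 6.1). Mir30c-1 was counted 191 and 259 times, or 47.8 and 51.2 CPM (mean 49.5 ± 2.4). Mir30c-2 was 1.56-fold and 1.63-fold above Mir30c-1 in replicates 1 and 2. For both genes the intervals of the libraries overlapped. Because the 5' arm is common to both, these values cannot be read as the level of miR-30c-5p. From highest to lowest the order was Mir30d, Mir30a, Mir30e, Mir30b, Mir30c-2 and Mir30c-1, in each library and per hairpin length, and no range of a gene overlapped that of its neighbour in this order. The distance from Mir30d to Mir30c-1 was 148-fold in replicate 1 and 129-fold in replicate 2.

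**Figure D2:**
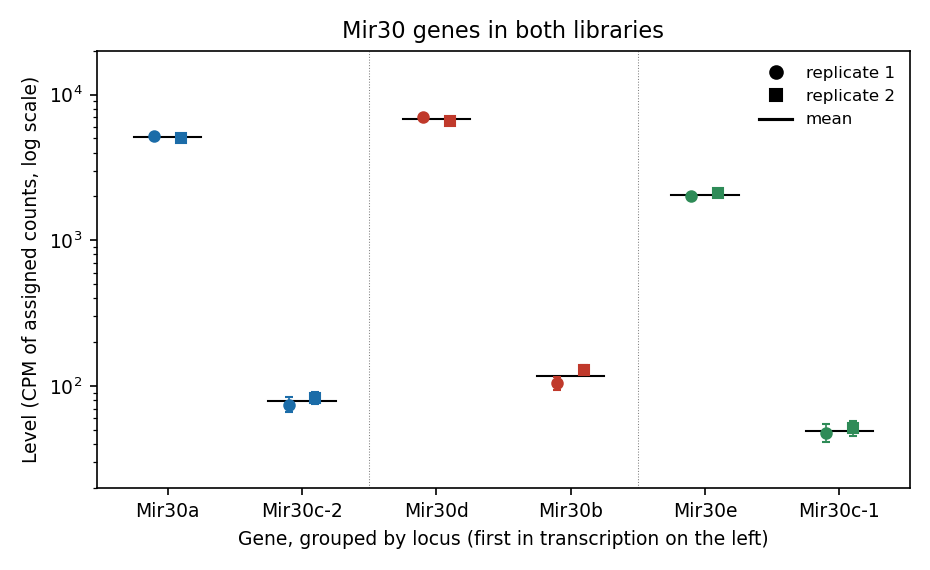
Level of each Mir30 gene in CPM of assigned counts (log scale), with genes grouped by locus and the first hairpin in the direction of transcription on the left of each pair. Circles are replicate 1, squares replicate 2, bars on the points exact 95% intervals and black lines means: Mir30a, Mir30d and Mir30e sit between 2011 and 7059.7 CPM, and their neighbours between 47.8 and 130 CPM.

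Among all 2202 genes, 313 had at least 10 counts in both libraries and are called detected, and their median level was 135 CPM. All 6 members were detected. Mir30d ranked 25th by mean CPM, Mir30a 29th and Mir30e 58th. These 3 are among the 70 genes that reached a mean of 1000 CPM. Mir30b ranked 164th, Mir30c-2 180th and Mir30c-1 195th, all below the median of the detected genes. The rank of each member differed between the libraries by at most 2 places, except that of Mir30b, which was 170 in replicate 1 and 159 in replicate 2.

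**Figure D3:**
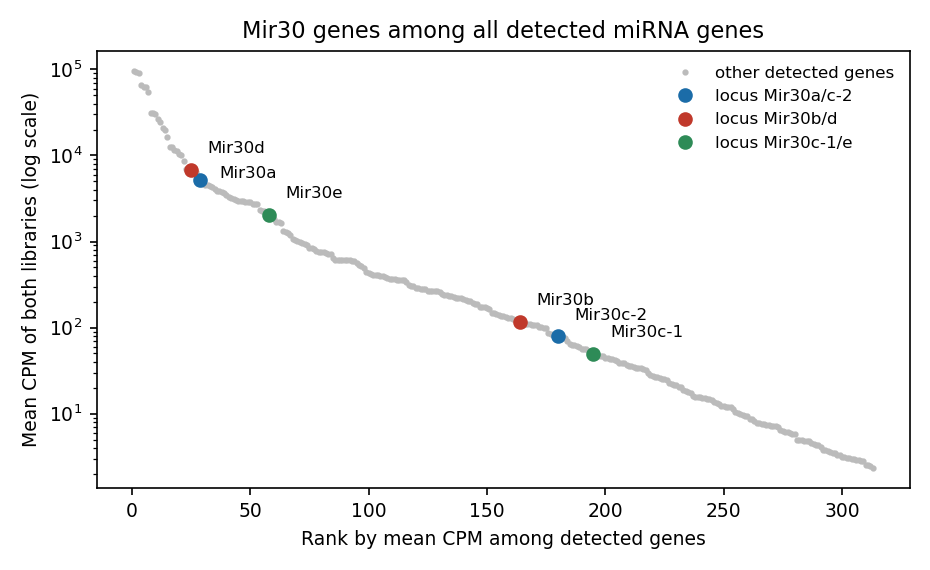
Mean CPM of both libraries (log scale) against rank for the 313 detected miRNA genes, with the Mir30 genes coloured by locus and other genes in grey. Mir30d, Mir30a and Mir30e lie at ranks 25, 29 and 58, and Mir30b, Mir30c-2 and Mir30c-1 at 164, 180 and 195.

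The genes nearest in level to each leading member came from other families. The measure was the size of the difference in log2 mean CPM over the 2 libraries, and the gene ranked directly above and directly below was taken. Mir30d lay between Mir434 (6839 ± 520 CPM, a log2 difference of 0.0027) and Mir139 (6610.3 ± 319 CPM, 0.046). Mir30a lay between Mir100 (5510.5 ± 154 CPM, 0.10) and Mir433 (4684 ± 204 CPM, 0.13). Mir30e lay between Mir27b (2147 ± 119 CPM, 0.059) and Mir298 (1925 ± 140 CPM, 0.099). The range of Mir30d overlapped those of both Mir434 and Mir139, and the range of Mir30e overlapped those of Mir27b and Mir298. Mir100 was above Mir30a and Mir433 below it in both libraries.

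By locus, Mir30b/d gave 49.5% of the family's counts in replicate 1 (interval 49.1 to 49.9) and 47.9% in replicate 2 (47.5 to 48.2). Mir30a/c-2 gave 36.3% (35.9 to 36.7) and 36.7% (36.4 to 37.1). Mir30c-1/e gave 14.2% (13.9 to 14.5) and 15.4% (15.1 to 15.7). These shares do not depend on how the libraries are scaled to each other. Between the libraries, the share of Mir30a/c-2 overlapped within its intervals, while Mir30b/d was lower and Mir30c-1/e higher in replicate 2 beyond counting error. The order of the loci was the same in both.

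Within each locus, 1 gene held nearly all the counts, and it was the hairpin that comes first in the direction of transcription. Mir30a took 98.6% of its locus in replicate 1 (interval 98.4 to 98.7) and 98.4% in replicate 2 (98.2 to 98.5). Mir30d took 98.5% (98.4 to 98.7) and 98.1% (97.9 to 98.2), a small difference beyond counting error. Mir30e took 97.7% (97.3 to 98.0) and 97.6% (97.3 to 97.9). As ratios, Mir30a exceeded Mir30c-2 by 65.3-fold ± 6.0 (SD, n = 2), Mir30d exceeded Mir30b by 59.3-fold ± 11.9, and Mir30e exceeded Mir30c-1 by 41.7-fold ± 0.59. At a pair of the 3 loci the lower gene is a miR-30c gene, whose 5' arm is shared, and the part of that sharing in these ratios was not tested.

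For context, the same ratio was computed for the 105 other pairs of detected miRNA genes that follow each other on 1 strand within 25 kb, a distance chosen after the values were seen. Their median ratio was 5.07-fold, and 17 pairs (16.2%) had a ratio at least as large as that of Mir30c-1/e, the smallest of the family. The first hairpin was the higher in 59 of these pairs (56.2%). Of the pairs, 49 lie on chromosome 12, which carries the large imprinted Dlk1-Dio3 cluster. Over the 56 pairs on other chromosomes the median was 6.76-fold, and 10 reached the ratio of Mir30c-1/e.

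**Figure D4:**
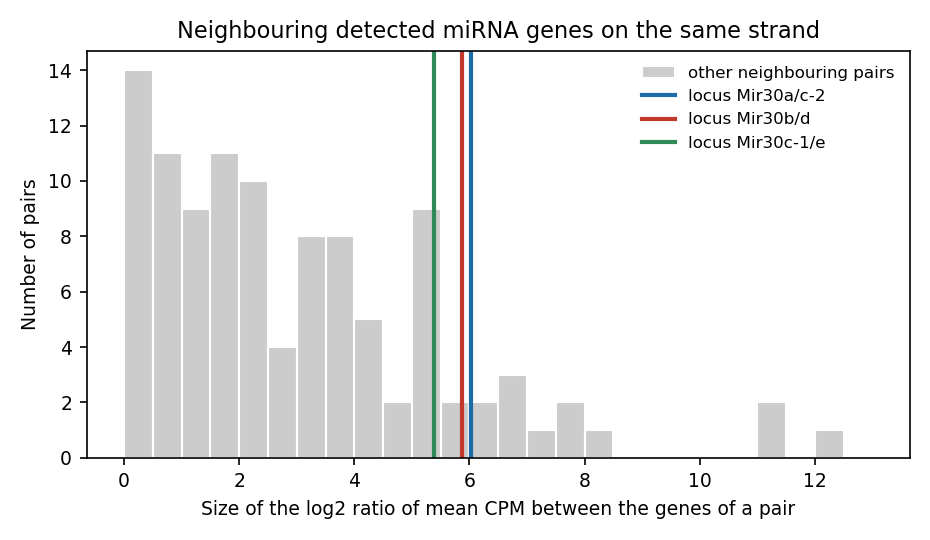
Number of neighbouring pairs of detected miRNA genes on the same strand (vertical axis) by the size of the log2 ratio of mean CPM between the genes of a pair (horizontal axis). Grey bars are the 105 other pairs and coloured lines the Mir30 loci, which lie between 5.38 and 6.02, in the upper part of the distribution.

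The sharing of arms was also counted over all genes for which the RefSeq table lists a pair of arms. Of 573 genes with neither arm in another annotated miRNA gene, as for Mir30a and Mir30e, 203 were detected (35.4%) and 57 reached 1000 CPM, with a median of 0.50 CPM over the class. Of 61 genes with 1 such arm, as for Mir30c-1 and Mir30c-2, 35 were detected (57.4%) and 2 reached 1000 CPM, with a median of 4.81 CPM and a highest level of 2955 CPM. The class of the miR-30c genes was thus detected more often and held a smaller share of genes of high level, 2 of 61 against 57 of 573. Of 23 genes with both arms in another gene, 3 were detected and 16 had no count. These classes of genes were matched for nothing else, so the counts are a description.

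Strand decided whether Mir30e was seen. The gene Mir30f is annotated at exactly the position of Mir30e on the opposite strand of chromosome 4. Its mature sequence is shown with its own seed in capitals, since it begins with the letters GUAAACA of the family seed, shifted by a base.
miR-30f: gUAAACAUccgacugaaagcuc
On its own strand Mir30f had 0 counts in both libraries. In the column that ignores strand, Mir30e also had 0 counts in both, and its 8042 and 10689 reads were part of the ambiguous row, of which they would make 1.13% and 1.15%. In that column the other 5 members had the same counts as on the sense strand, and no member had an antisense read.

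Beside 3 other conserved families, Mir30 stood below let-7 and above Mir26 and Mir29 in its share of the assigned counts. Reads with several genomic matches are in no gene, and how many of them came from each family was not tested. The 12 let-7 genes, whose miRNAs accumulate as tissues mature, took 11.2 times the share of Mir30 in replicate 1 and 11.6 times in replicate 2. The 3 Mir26 genes took 0.989% and 1.10% of the assigned counts, so Mir30 was 1.46-fold and 1.28-fold higher. The 4 Mir29 genes, regulators of collagen transcripts, took 0.0125% and 0.0158%, and Mir30 was 116-fold and 89.0-fold higher. The shares of Mir30 and of each of these families did not overlap between libraries. Of the counts assigned to the Mir26 genes, 99.8% were from Mir26b, and reads that match several genes are not among them.

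Between the libraries, the level of the family in replicate 2 over that in replicate 1 was 1.02 with totals scaled by TMM (trimmed mean of M values) and 0.970 with plain totals. A two-sided exact binomial test of each gene's counts, given the TMM-scaled totals and adjusted over the 332 genes averaging 10 counts or more, called 4 of the 6 members at 0.05. It measures counting error only, and it compares 2 libraries of 1 group, not conditions. Among all genes tested it called 131 (39.5%), with 27.1% higher and 12.3% lower in replicate 2. Split by depth, of the 48 genes with a mean of 5000 to 50000 counts, which include Mir30a, Mir30d and Mir30e, 32 were called (66.7%), and of the 90 genes with 100 to 1000 counts, which include the other 3 members, 31 were called (34.4%).

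Mir30b had the largest ratio of the members, with replicate 2 exceeding replicate 1 by 1.31-fold (log2 0.38, 95% limits 0.21 and 0.57; exact binomial adjusted p = 9.65e-05). For Mir30e the excess was 1.10-fold (log2 0.14, 95% limits 0.10 and 0.18; exact binomial adjusted p = 2.06e-10). Mir30a was called higher by a log2 ratio of 0.04 with TMM, but with plain library totals the ratio was -0.03 and was not called (exact binomial adjusted p = 0.00696 and 0.0636). Mir30d was called lower, by a log2 ratio of -0.03 (exact binomial adjusted p = 0.0484). With plain totals its ratio was -0.10 and that of Mir30e 0.07, both still called (exact binomial adjusted p = 2.86e-16 and 0.00342).

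Mir30c-2 (log2 0.23, interval 0.01 to 0.45) and Mir30c-1 (log2 0.17, interval -0.10 to 0.45) were not called, with exact binomial adjusted p of 0.0823 and 0.354. The median log2 ratio was 0.16 over the members and 0.02 over all genes tested, whose ratios had an SD of 0.49. The exact negative binomial test of edgeR, which adds the spread seen between these libraries (biological coefficient of variation 0.14), called none of the members, and none had an unadjusted p under 0.05. It called 6 of the 332 genes (1.81%), and 23 had an unadjusted p under 0.05. Marker shares of other cells differed between the libraries in both directions. The erythroid share was 2.43-fold and the hepatocyte share 2.65-fold as large in replicate 2, while the leukocyte share was 1.06-fold and the epithelial share 0.683-fold. The epithelial share rests on few counts, with 0.00223% of the assigned counts in replicate 1 and 0.00152% in replicate 2. Within the epithelial, the leukocyte and the skeletal muscle lists, some genes were higher and others lower in replicate 2. Of the muscle genes, Mir206 had 100599 and 87446 CPM in replicates 1 and 2, and Mir499 192 and 302 CPM. Mir133a-1, Mir133a-2 and Mir133b were also lower in replicate 2, and Mir1a-1, Mir1a-2 and Mir208b higher. Endothelial Mir126a took 5.58% and 6.79% in replicates 1 and 2. Of the smooth muscle markers, Mir143 had 23931 and 29124 CPM and Mir145a 641 and 589 CPM. Their part in the differences of the Mir30 genes was not tested.

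**Figure D5:**
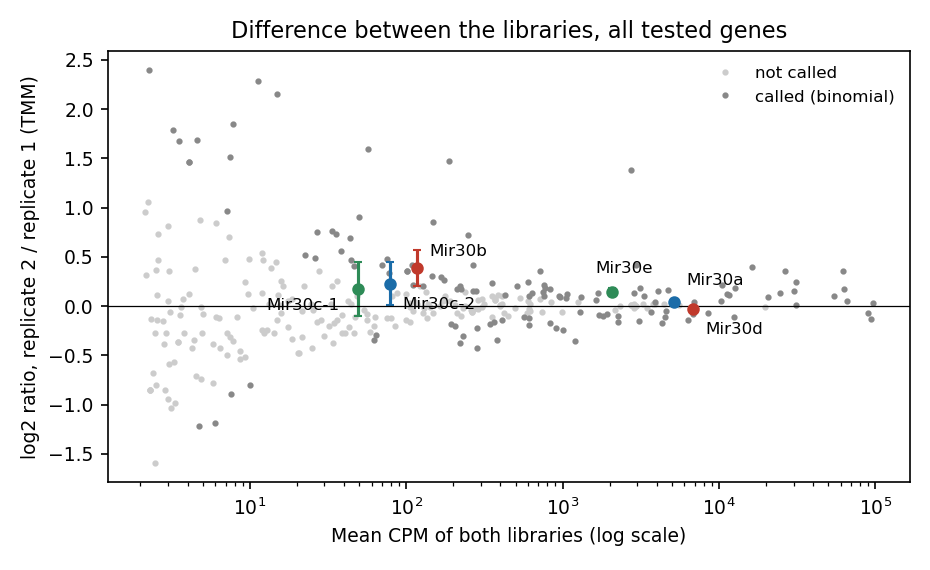
Log2 ratio of replicate 2 over replicate 1 after TMM scaling (vertical axis) against mean CPM (log scale) for the 332 genes tested, in dark grey where the binomial test called them. The Mir30 genes, coloured by locus with 95% intervals, lie between -0.03 and 0.38.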

How the data were processed

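The authors deposited raw read counts per miRNA gene, 1 table per library. Per the metadata text deposited beside them, the assembly was mm10 and the annotation GENCODE M21. For aligner and counter, the sources used here give no name. Reads are counted in 3 columns (without regard to strand, sense and antisense), with 4 summary rows. The sense column was used. The summary rows, 58.7% and 60.7% of all reads, were left out of totals and tests.

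All 2202 identifiers matched M21, which gave symbols and positions. Mature sequences are those of RefSeq (GRCm38.p6). CPM, shares and exact intervals were computed with Python 3.11.15, pandas 2.3.3, numpy 2.4.6 and scipy 1.17.1. Libraries were compared with an exact binomial test in R 4.3.3 with TMM from edgeR 4.0.16 and Benjamini-Hochberg adjustment at 0.05 over genes averaging 10 counts or more. The test was tested on simulated data that held counting error only, without the further spread seen between these libraries. Alternatives were the column without strand, other denominators, hairpin length, DESeq2 1.42.0 size factors, plain totals, other count minimums, edgeR's exact test and each library alone. Members and lists were chosen with earlier results of these data known. All 6 members were named, with the genes next in level to the leader of each locus and 3 comparison families by their share.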

Additional observations from a re-analysis of the deposited data

Results flagged for a closer look

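Some reads lay outside the values compared above. Reads with several genomic matches, which are in no gene, made up 47.0% of replicate 1 and 48.0% of replicate 2. How many of them came from miR-30c-5p was not tested. On the strand opposite to Mir30f, 8042 reads were counted in replicate 1 and 10689 in replicate 2, and these equal the sense counts of Mir30e at the same position.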

How the results depend on the processing

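Leaving out a library leaves the value of the other, so with 2 libraries it says nothing on stability. No paired analysis was possible because there is 1 group. In the column without strand, where Mir30e has no counts, the family share was 1.49%, the locus shares of the family were 42.7% for Mir30a/c-2, 56.9% for Mir30b/d and 0.406% for Mir30c-1/e, and Mir30e took 0% of its locus. With all reads as denominator the family share was 0.575%. Divided by hairpin length, the locus shares were 40.5%, 46.8% and 12.7% in the same order, and Mir30a and Mir30e took 98.7% and 97.6% of their loci. The count of members called between the libraries fell from 4 to 0, and that of all genes from 131 to 6, with edgeR's exact negative binomial test, whose dispersion comes from the same libraries. With plain library totals the ratio of Mir30a changed sign to -0.030 and all genes split into 62 higher and 79 lower, against 90 and 41 with TMM. Without a filter beyond 1 count, Mir30d was no longer called (exact binomial adjusted p = 0.0984). Calls of Mir30b and Mir30e held in each alternative of the binomial test in which they had counts. Depth limits the lower members most: the interval of the log2 ratio of Mir30c-1, the least counted, included 0, and that of Mir30c-2 reached down to 0.01.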
